A study of Saccharomyces cerevisiae with 12 samples.

Results

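The 33 genes described here encode the subunits of the budding yeast proteasome, and they were taken by name from the R64 annotation, which has 6008 protein-coding genes on the nuclear chromosomes. The list holds 7 genes of the 20S alpha ring, 7 of the 20S beta ring, 6 ATPases of the 19S base, 4 other base and ubiquitin receptor subunits, and 9 lid subunits. All 33 were found in the annotation, none lies on chromosome III, and they were compared with the 5840 genes outside that chromosome. For each gene the hits were counted in the reading frame, in the 500 bp upstream of the start codon and in the 500 bp downstream of the stop codon, so that the members gave 99 windows, and no window of one member shared bases with that of another.

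CC-seq recovers DNA ends that carry a covalently attached protein and maps the terminal 5′ nucleotide of each, here called a hit. The cells were haploid Saccharomyces cerevisiae of the BY4741 background in vegetative growth in YPD. Every strain, the control included, carried a pdr1DBD-CYC8 cassette at PDR1 that lowers drug export, either alone (pdr1) or with deletion of SAE2 (pdr1sae2) or of MRE11 (pdr1mre11). SAE2 and MRE11 encode factors that remove proteins from DNA ends. Each strain was treated for 4 h with 1 mM VP16, also called etoposide, which traps topoisomerase 2 (Top2) on cleaved DNA, or for 4 h with 2% DMSO, called untreated. The resulting 6 groups held 2 biological replicates each, giving 6 untreated and 6 VP16 libraries.

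The proteasome is the protease that degrades ubiquitin-tagged proteins. Its 20S core is a stack of alpha rings, which gate the entrance, and beta rings, which hold the proteolytic sites, and its 19S cap recognises ubiquitin, removes it and feeds the unfolded substrate into the core. In yeast the genes for these subunits are expressed together through the transcription factor Rpn4, which binds a short promoter element named PACE and is itself a short-lived proteasome substrate. Top2 passes DNA through a double-strand break whose 5′ ends are offset by a 4-base overhang, so that a cleaved site leaves a hit on the Watson strand and another on the Crick strand 3 bases further on.

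The PACE element ties the members together by sequence. The exact 9-base form GGTGGCAAA was searched on both strands of the 500 bp upstream windows, and 27 of the 33 members held it, each in 1 copy, against 92 of 5839 windows (1.58%) of all genes of the same length. PRE5, PUP1, RPN8, RPN10, RPN13 and SEM1 had no exact match. In 19 members the element was read in the direction of the gene and in 8 in the opposite direction, and it lay 76 to 175 bp before the start codon, with a median of 112 bp. The following copies are the 5 with the most VP16 hits at the first bases of the element and the 3 with the fewest, as described further on. They are written 5′ to 3′ on the strand that reads GGTGGCAAA, with R64 coordinates, and capitals mark the element.
RPT3, chrIV:1261495-1261523, + strand: ctgaaagtaaGGTGGCAAAatagtaaatc
PRE6, chrXV:255218-255246, - strand: tttcccttccGGTGGCAAAagaatcttcg
RPN9, chrIV:1322086-1322114, + strand: gctttcatccGGTGGCAAAagtaagaaca
PUP2, chrVII:999226-999254, - strand: aaccaagaccGGTGGCAAAagagtaacct
RPT4, chrXV:813802-813830, + strand: ctttcccttcGGTGGCAAAttccactatt
PRE8, chrXIII:86841-86869, - strand: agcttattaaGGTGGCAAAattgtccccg
RPN1, chrVIII:164838-164866, - strand: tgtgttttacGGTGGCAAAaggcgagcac
RPT5, chrXV:544855-544883, + strand: gccaatatgtGGTGGCAAAaatgaattaa

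The strongest single cleavage sites of the members are shown next, because a few such nucleotides carried a large share of the hits of their windows. A site is a Watson hit paired with the Crick hit 3 bases further on, and capitals mark the 4-base overhang. The sequences are on the Watson strand with 12 bases to each side, in R64 coordinates, and each 40-base surrounding occurs in 1 copy in the genome.
RPN3 upstream, chrV:196867-196894: aagagacaaagcAGTAggtaaggcattc
RPN5 reading frame, chrIV:192151-192178: caattattgaacGAATggtcacataatg
RPT6 downstream, chrVII:409864-409891: aaggaacgggccCCCCggcttactatta
RPN6 downstream, chrIV:285194-285221: gcttgtaggaacTTCTggttttgatgaa
PRE10 downstream, chrXV:1017620-1017647: atttttcaatgtGCGTggaagaaaattt
RPT5 downstream, chrXV:546607-546634: atcgacggctacGGGTgctttgagtatt

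The libraries held 685100 to 3463679 nuclear hits without VP16 and 1073764 to 2947575 with it. The deleted genes were checked first, in the 500 bp interval of each that had the fewest hits in the libraries lacking it. Low counts in those libraries were therefore favoured by the choice, and PDR1 had no library with the intact gene to compare. A 500 bp interval within PDR1 had 0 or 1 hit in each of the 12 libraries, one in SAE2 had 1 to 4 hits in the 4 pdr1sae2 libraries against 22 to 160 in the other 8, and one in MRE11 had 0 hits in the 4 pdr1mre11 libraries against 24 to 100 in the other 8. Levels are given below as relative density, the hits per mappable kb divided by the mean of the same library, so that 1 is the library mean. The reads carried no molecular identifiers, so repeated hits at a nucleotide may include copies of 1 molecule.

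In the 500 bp upstream of the start codon, the share of hits in the library was higher with VP16 for 21 of the 33 members and lower for none, at an adjusted p of 0.05 (quasi-likelihood test of edgeR, adjusted after Benjamini and Hochberg over the windows of all genes). Of all genes tested, 61.2% of the upstream windows rose and 8.55% fell by the same adjusted test. The members' share of rises, 63.6%, was thus close to that of genes in general. At an unadjusted p under 0.05 there were 22 rises and 0 falls, where 4175 of 5779 upstream windows of all genes changed in either direction. DESeq2 called 20 rises and 0 falls, where 58.8% of all genes rose and 8.06% fell. In edgeR the median log2 change was 0.41 over the members and 0.43 over all genes. In 13 members all 6 VP16 libraries lay above all 6 untreated ones, and in none did they lie below, against 36.2% and 2.91% of all genes. Without the 6 libraries of replicate 1, which include the 3 deepest untreated ones, 13 members rose and none fell, where 50.8% of all genes rose and 6.58% fell.

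**Figure D1:**
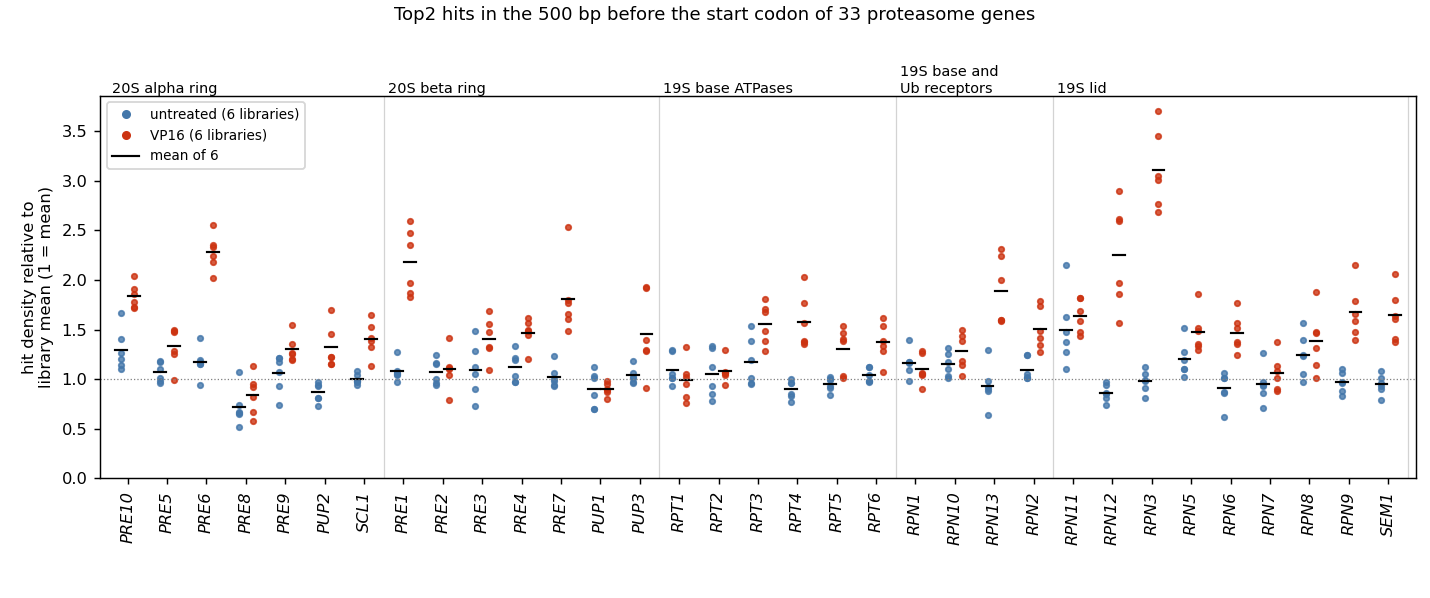
Relative hit density (hits per mappable kb over the library mean, linear axis) in the 500 bp upstream window of each of the 33 genes, grouped by subcomplex. Each point is 1 library, blue untreated and red VP16, and the bar is the mean of 6. RPN3 has the highest VP16 mean, 3.11, and PRE8 the lowest in both treatments, 0.844 with VP16 and 0.719 without.

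RPN3, a scaffold subunit of the lid, had the largest rise. Its relative density upstream was 0.812, 0.985 and 1.12 (lowest, median and highest of 6) without VP16 and 2.69, 3.03 and 3.70 with it. The treatments did not overlap, and the log2 change was 1.64 ± 0.12 (SE, n = 6 against 6, edgeR quasi-likelihood adjusted p = 3.1e-12). RPN12, another lid subunit, had 0.744, 0.852 and 0.972 without VP16 and 1.57, 2.28 and 2.90 with it, a log2 change of 1.33 ± 0.13. Of the other lid genes, RPN9 changed by 0.79 ± 0.12 and SEM1, which encodes a small intrinsically disordered subunit, by 0.78 ± 0.12, and in both the treatments did not overlap. In the lid list 5 of 9 genes rose, RPN6 (0.63) being the fifth. RPN11, the deubiquitinase of the lid, had the highest untreated density of all members, a mean of 1.50, and its log2 change of 0.06 ± 0.12 did not pass the test.

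In the beta ring 5 of 7 upstream windows rose. PRE1 had 0.976, 1.06 and 1.28 without VP16 and 1.83, 2.17 and 2.60 with it, a log2 change of 0.96 ± 0.12 (edgeR adjusted p = 5.7e-08), and PRE7 changed by 0.78 ± 0.12. Both encode beta subunits without a proteolytic site. Of the 3 subunits with one, PRE3 rose by 0.38 ± 0.14, whereas PRE2 (0.04 ± 0.13) and PUP1 (0.04 ± 0.14) did not pass the test. In the alpha ring 5 of 7 rose, led by PRE6, which had 0.947, 1.16 and 1.41 without VP16 and 2.02, 2.29 and 2.56 with it, a log2 change of 0.93 ± 0.11. The alpha ring genes PRE8 (0.24 ± 0.16) and PRE9 (0.21 ± 0.12) were the 2 that did not pass.

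Of the ATPases that unfold the substrate, 4 of 6 rose, with changes from 0.39 (RPT6) to 0.77 (RPT4), and RPT1, at −0.14 ± 0.13 and RPT2, at 0.09 ± 0.14, did not pass. RPT1 had the lowest estimate of the 33 members. Among the 4 other base genes, RPN13, which encodes a ubiquitin receptor, had 0.640, 0.910 and 1.29 without VP16 and 1.59, 1.80 and 2.32 with it, a log2 change of 0.93 ± 0.12 (edgeR adjusted p = 1.7e-07). RPN2, a large scaffold, rose by 0.44 ± 0.11. RPN1, the other scaffold, at −0.10 ± 0.11, and RPN10, a further ubiquitin receptor, at 0.09 ± 0.12, did not pass. Ranked by mean density, neighbouring members overlapped between libraries in 32 of 32 pairs without VP16 and in 31 of 32 with it. With VP16 the pair without overlap was RPN3 and PRE6, the first and the second in rank (means 3.11 and 2.28), but the libraries of RPN3 overlapped those of RPN12, the next in rank.

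**Figure D2:**
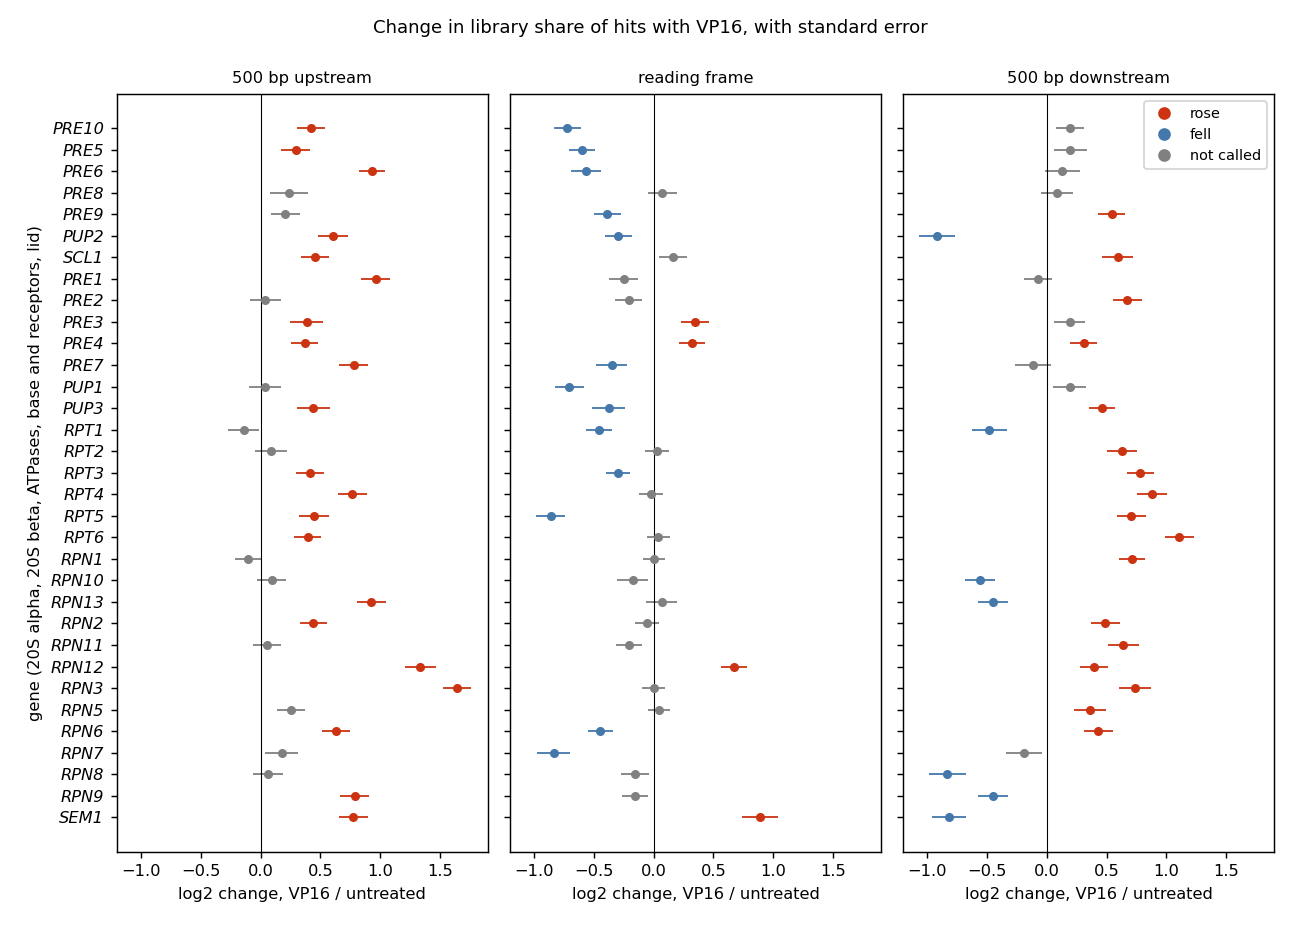
log2 change of the library share of hits, VP16 against untreated, in the 3 windows of each of the 33 genes, with the standard error from edgeR (n = 6 against 6). Red points rose, blue points fell and grey points did not pass an adjusted p of 0.05. The upstream panel has 21 red and no blue points, the reading frame panel 4 red and 13 blue, and the downstream panel 17 red and 7 blue.

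Within the reading frames 13 members fell and 4 rose, 39.4% and 12.1% of the 33, where 54.1% of all genes fell and 13.4% rose. The median log2 change was −0.18 over the members and −0.30 over all genes, and 7 members lay below and 2 above in every VP16 library, against 32.6% and 6.96% of all genes. RPT5, an ATPase, had 0.748, 1.04 and 1.33 without VP16 and 0.462, 0.601 and 0.687 with it, a log2 change of −0.86 ± 0.12 (edgeR adjusted p = 4.6e-07), and the treatments did not overlap. RPN7 of the lid, which had the lowest VP16 density of the members (0.491), changed by −0.84 ± 0.14, PRE10 of the alpha ring by −0.72 ± 0.11, PUP1, the subunit with the trypsin-like site, by −0.70 ± 0.12 and PRE5 of the alpha ring by −0.60 ± 0.11. In the alpha ring 5 of 7 reading frames fell and none rose.

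The 4 reading frames that rose were those of SEM1, RPN12, PRE3 and PRE4. SEM1, whose frame of 270 bp is short, had 0.835, 0.905 and 0.959 without VP16 and 1.30, 1.75 and 2.29 with it, a log2 change of 0.89 ± 0.15 on 14 to 75 and 49 to 133 hits (edgeR adjusted p = 8.6e-06). RPN12 changed by 0.67 ± 0.11 and did not overlap between treatments either, so that both its upstream window and its reading frame rose. PRE3, the subunit with the caspase-like site, changed by 0.35 ± 0.11. It did not pass without replicate 1 (edgeR adjusted p = 0.0596) or without replicate 2 (edgeR adjusted p = 0.0823).

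All of these changes are relative to the library. When the libraries were scaled by the authors' human spike-in instead, the median over the windows of all genes moved from 0.11 to 1.59 on the log2 scale, and 33 upstream windows, 33 reading frames and 32 downstream windows of the members rose and none fell (98.9%, 95.5% and 97.4% of all genes rose). The falls named here were therefore smaller rises on that scale, such as 0.65 for the RPT5 reading frame. The spike-in ratio is a single value for both replicates of a group.

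Downstream of the stop codon 17 members rose and 7 fell, 51.5% and 21.2%, where 43.7% of all genes rose and 19.4% fell. With bases of other reading frames left out, 10 members rose and 7 fell, where 42.3% of all genes rose and 18.7% fell. In 200 bp windows 10 members rose and 8 fell, against 31.2% and 22.2% of all genes. In the 500 bp windows the treatments did not overlap in 6 members with VP16 above and in 5 with it below, against 23.5% and 7.62% of all genes. Of the 6 ATPase genes 5 rose, and they held the 3 largest rises. RPT6 had 1.17, 1.46 and 2.10 without VP16 and 2.43, 3.47 and 4.63 with it, a log2 change of 1.11 ± 0.12 (edgeR adjusted p = 6e-09), and its VP16 mean, 3.46, was the highest of the members. RPT4 changed by 0.88 ± 0.12 and RPT3 by 0.78 ± 0.11, and RPN3 of the lid followed at 0.74 ± 0.13. With each position counted once, the RPT3 change was 0.16 (edgeR adjusted p = 0.153). The RPT4 window is largely the reading frame of the convergent HNT3 (430 of 500 bp), and with bases of other reading frames left out its change was 0.23 (edgeR adjusted p = 0.468), while in 200 bp windows it was 0.16 (edgeR adjusted p = 0.520).

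The largest downstream falls were those of PUP2, RPN8 and SEM1. PUP2, an alpha ring gene, had 0.839, 1.11 and 1.28 without VP16 and 0.408, 0.558 and 0.70 with it, a log2 change of −0.92 ± 0.15 (edgeR adjusted p = 4.5e-06). RPN8, the partner of the deubiquitinase, changed by −0.83 ± 0.15, and in both genes the treatments did not overlap. SEM1 changed by −0.82 ± 0.14 with overlapping treatments, but by 0.14 in 200 bp windows and by 0.20 with every nucleotide counted once. PUP2, RPN8 and SEM1 all face a convergent neighbour (GCN5, GCD1 and CDC40), as did all 7 members that fell: of the 17 members with a convergent neighbour downstream 8 rose and 7 fell, and of the 16 with a tandem one 9 rose and none fell. Over all genes 31.5% of convergent downstream windows rose and 26.4% fell, and 56.9% of tandem ones rose and 11.9% fell, and whether the members differ from that was not tested. Upstream, 13 of 21 members with a divergent and 8 of 12 with a tandem neighbour rose. Over all genes 62.2% of divergent and 60.2% of tandem upstream windows rose.

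The gain upstream lay mostly in a narrow stretch. In 50 bp bins the members peaked 51 to 100 bp before the start codon, where the relative density was 3.02 (2.39 to 3.64 over the 6 libraries) with VP16 and 1.14 (1.01 to 1.30) without. The bin 101 to 150 bp before it had 2.53 with VP16 and the bin next to the start codon 0.984. All genes reached their highest value one bin further out, 2.43 at 101 to 150 bp against 2.08 at 51 to 100 bp. Beyond 250 bp before the start codon the members' VP16 density lay between 0.960 and 1.17 and that of all genes between 1.19 and 1.47. These bins hold different shares of neighbouring genes and promoters in the members and in all genes, and that part was not tested. Downstream, the members' highest bin was 150 to 199 bp past the stop codon, 2.35 with VP16 and 1.19 without, where all genes had 1.62.

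**Figure D3:**
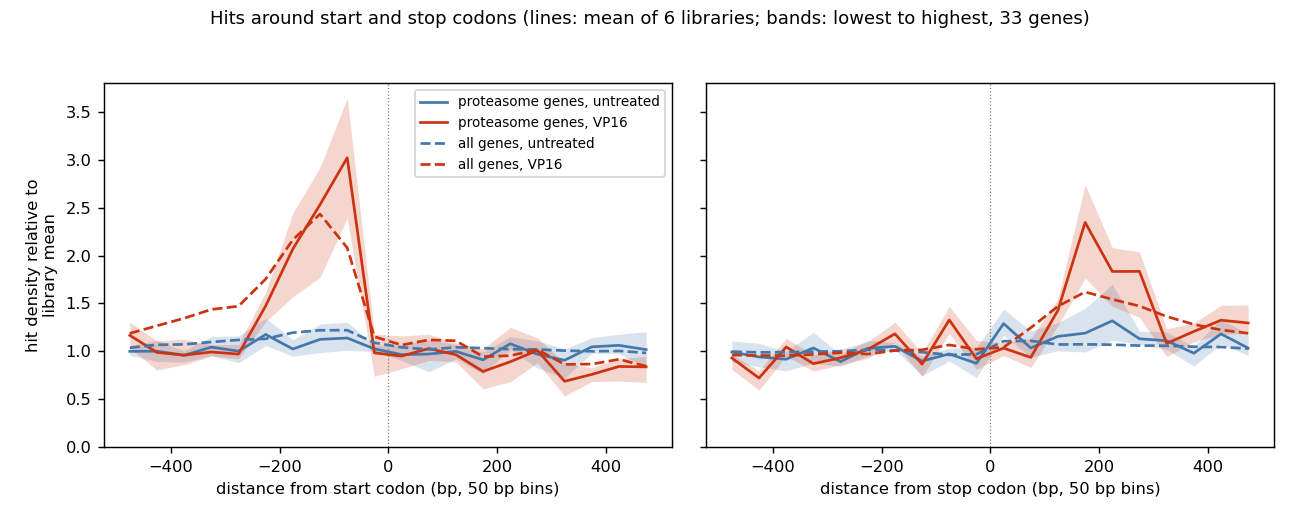
Relative hit density (linear axis) in 50 bp bins around the start codon (left) and stop codon (right). Solid lines are the 33 proteasome genes with bands from the lowest to the highest of 6 libraries, dashed lines are all genes outside chromosome III, red is VP16 and blue untreated. The members' VP16 line peaks at 3.02 in the bin 51 to 100 bp before the start codon and that of all genes at 2.43 in the bin before it.

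Summed over the members, the ratio of upstream to reading frame density rose by 0.62 on the log2 scale with VP16 (SD within groups 0.12). The ratio lay between 0.04 and 0.29 in the untreated libraries and between 0.55 and 0.99 in the VP16 libraries, without overlap. By strain the rise was 0.69 (pdr1), 0.56 (pdr1sae2) and 0.63 (pdr1mre11), and over all genes it was 0.78. With 200 bp windows, which keep to the narrow peak, it was 1.08 over the members and 0.97 over all genes. Counting each nucleotide and strand once per library gave 0.31 and 0.46. In 200 bp upstream windows 25 of the 33 members rose and none fell, with a median log2 change of 0.76, where 57.8% of all genes rose, with a median of 0.54.

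The members' PACE copies lay 76 to 175 bp before the start codon, with a median of 112 bp. Some are thus in the highest 50 bp bin, but most are in the bins further out. Within 50 bp of the element the 27 members that hold it had a density of 1.10 (1.02 to 1.16) without VP16 and 2.78 (2.02 to 3.28) with it. In 18 of the 27 every VP16 library lay above every untreated one. That count was not made for the copies outside the members or for other genes, so it has no background to be read against. In the wider 500 bp upstream windows such a separation was found in 13 members and in 36.2% of all genes. Within 50 bp of the element the VP16 means of the 27 members ran from 0.956 to 10.2. The highest was that of RPN3, whose strongest site lies within 50 bp of the element but outside it. The 44 copies found upstream of other genes had 1.91 with VP16 (1.55 to 2.19), and the 111 copies outside upstream windows had 0.889 (0.842 to 0.922), below their untreated mean of 0.923. Of the 27 members with the element 18 rose upstream, with a median log2 change of 0.42, and of the 6 without it 3 rose, with a median of 0.19.

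Resolved to single nucleotides, the hits of the 27 copies fell on few positions at the front edge of the element. Positions are counted along the strand that reads GGTGGCAAA, with its first G as 1. The most frequent was position 0 on the opposite strand, with 957 hits in the 6 VP16 libraries and 53 in the 6 untreated ones, and its partner for a 4-base overhang, position −3 on the element's strand, had 504 and 25. The second pair was position 4 on the opposite strand, with 590 and 22 hits, and position 1 on the element's strand, with 183 and 17. The first pair encloses the 4 bases just before the element and the second its first 4 bases. These 4 strand positions were singled out after this profile of the 27 member copies had been seen. High VP16 values there in the members were therefore favoured by the choice.

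**Figure D4:**
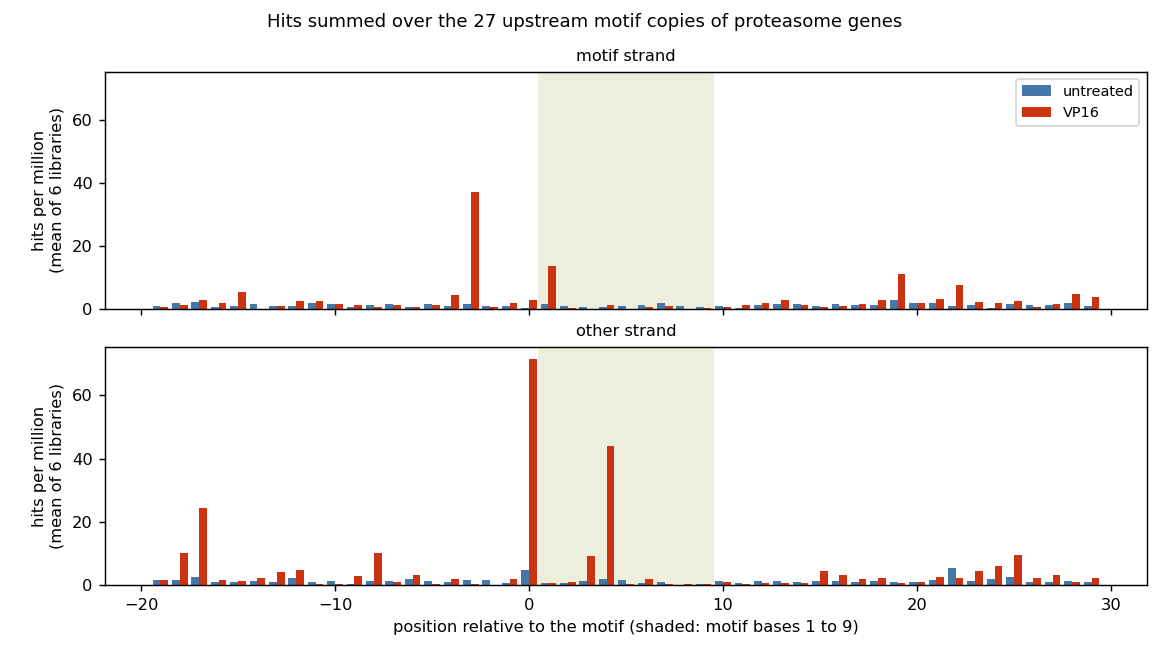
HpM, hits per 1000000 nuclear hits (linear axis, mean of 6 libraries, summed over 27 copies) at each position from 20 bases before to 20 bases after the element, on the strand of the element (top) and the opposite strand (bottom). Red bars are VP16 and blue bars untreated, and the shaded block is the element. The opposite strand has its tallest VP16 bars at positions 0 and 4 and the element's strand at −3 and 1.

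Together the 4 strand positions held 41.0% (35.1 to 45.2 over the 6 libraries) of the VP16 hits among the 98 strand positions within 20 bases of the element, and 7.91% (6.45 to 10.1) of the untreated hits. At the 44 copies upstream of other genes the share was 29.1% (19.8 to 32.9) with VP16 and 4.91% without, and at the 111 copies outside upstream windows 25.2% (14.6 to 34.2) and 4.69%. The share was higher with VP16 in all 3 sets of copies, while the number of hits differed between them: the mean per copy was 6.16 HpM (hits per 1000000 nuclear hits of the library) in the members, 2.68 upstream of other genes and 0.977 elsewhere, with 0.378, 0.208 and 0.182 without VP16. In the members 26 of 27 copies had a higher mean with VP16 and 17 did not overlap between treatments, and no copy held more than 12.1% of the VP16 hits. Of the 44 copies upstream of other genes 41 had a higher mean with VP16 and 10 did not overlap. Elsewhere the counts were 86 and 13 of 111. Since the positions were chosen on the members' own copies, the comparison with the other copies favours the members and is no separate test.

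RPT3 led the order, with 271 VP16 hits at these positions (16, 50 and 75 as lowest, median and highest library) against 16 untreated hits, and 262 of the 271 were in the first pair. PRE6 followed with 250 against 7, RPN9 with 229 against 5 and RPT4 with 209 against 6, all mostly in the first pair. PUP2 differed, having 201 of its 203 hits in the second pair and 2 in the first, and RPN7 had 73 of 74 in the second. At the other end RPT5 had 1 VP16 hit, RPN1 2 and PRE8 2, as few as without the drug (1, 2 and 0). The first 8 members in this order held 69.7% of the hits.

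**Figure D5:**
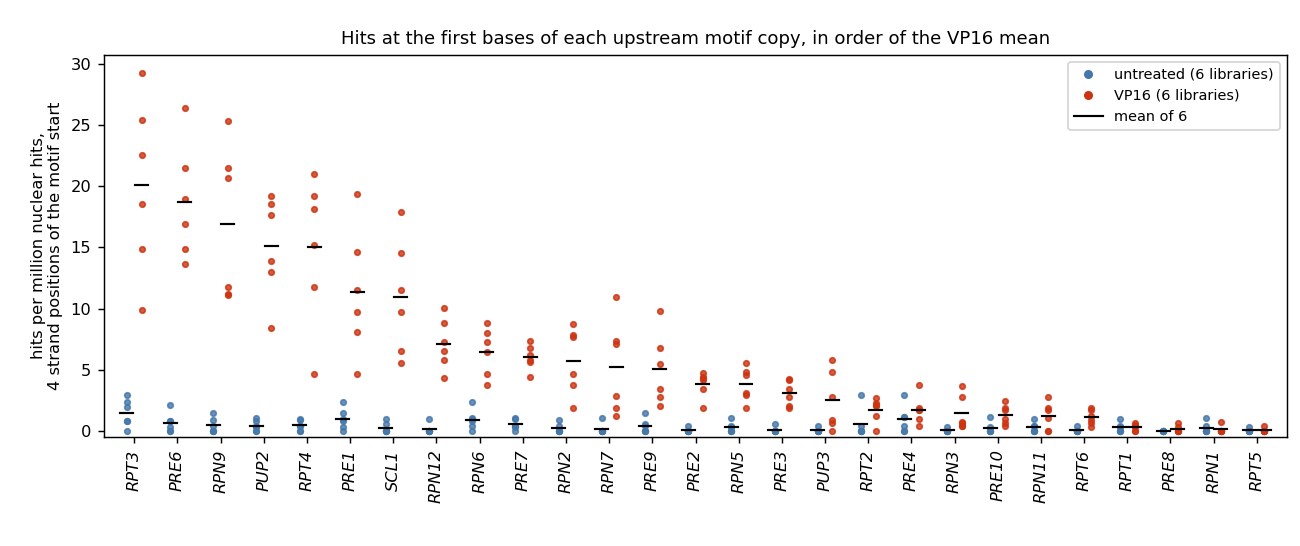
HpM, hits per 1000000 nuclear hits, at the 4 strand positions of the front edge of the element, by member and library (linear axis), in order of the VP16 mean. Blue points are untreated, red points VP16 and bars the mean of 6. RPT3 is highest with a mean of 20.1 and the last 4 genes, RPT1, PRE8, RPN1 and RPT5, had at most 2 hits in any VP16 library.

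The base before the cut differed between these copies. Opposite-strand hits at positions 0 and 4 are both preceded by a cytosine, the complement of a G of the element. On the element's strand the base before the first pair's cut lies outside the element and was C in 10 copies, whose first pair had a median of 65.5 VP16 hits (1 to 201), and another base in 17, with a median of 8 (0 to 262). For the second pair the corresponding base was C in 13 copies, with a median of 13 hits, and another base in 14, with a median of 6. The ranges overlapped throughout, and this grouping was made after the values were seen.

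Over all windows of the members the base 5′ of the cut was cytosine for 20.4 to 22.0% of the untreated hits and for 47.5 to 66.5% of the VP16 hits, where 19% of the bases are cytosine. The mean difference was 38.3 percentage points (SD within groups 5.66), or 25.3 with each nucleotide counted once, and 36.5 over all genes. Of the sites with at least 8 VP16 hits, 34.9% on average (26.4 to 41.2 over libraries) were one-sided, meaning that the 2 strands of the pair differed in a binomial test at 0.05, as were 35.8% over all genes.

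Single sites weighed heavily. Over the 6 libraries of each treatment the members' upstream windows had 16962 hits at 11682 strand positions without VP16 and 28086 hits at 7729 positions with it, and positions with more than 20 hits held 3.81% and 36.8% of them. In the reading frames these shares were 4.92% and 18.9%. With each position counted once per library, upstream windows still gave 15 rises and no fall, where 47.4% of all genes rose and 4.86% fell. Reading frames gave 3 rises and 10 falls, where 9.95% of all genes rose and 48% fell.

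The RPN3 site printed above, 67.5 bp before the start codon, was the strongest of the members. It had 35, 48, 89, 110, 132 and 136 hits in the 6 VP16 libraries and 0 to 7 in the untreated ones, and made up 24.7 to 38.9% of the hits of its window. A second site shifted by 1 base had 15 to 71 VP16 hits and 0 to 4 untreated. Both lie within the 430 bp between RPN3 and GPA2 and on the start codon side of the PACE element, whose own front edge had only 16 VP16 hits.

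The RPN5 site was inside the reading frame, 1240.5 bp past the start codon, with 20 to 122 VP16 hits and 0 to 25 untreated. The RPT5, RPN6 and PRE10 sites lay 287.5, 183.5 and 246.5 bp past the stop codon, with 17 to 117, 14 to 97 and 17 to 80 VP16 hits and at most 2, 3 and 5 untreated. At the PRE10 site the Crick strand had 268 of the hits and the Watson strand 36, and the site was one-sided in all 6 VP16 libraries. In its overhang pair the base before the cut was C on the Crick strand and T on the Watson strand, whereas it was C on both strands at the RPN3, RPN5, RPT6, RPN6 and RPT5 sites. The eighth site was that of the first pair at the RPT3 element, which had 15 to 73 VP16 hits and 0 to 7 untreated and was one-sided in none of the 6.

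At the RPT6 site, 191.5 bp past the stop codon, the replicates stood apart. The Crick hit was 0 in replicate 1 of all 3 strains and 23, 31 and 50 in replicate 2, while the Watson hit was 61, 15 and 17 in replicate 1 and 26, 51 and 72 in replicate 2. The overhang and its left flank are a run of C, and the cause of the difference was not tested.

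Between strains no member window was called. For pdr1sae2 against pdr1 under VP16, edgeR's quasi-likelihood test gave 0 of 99 windows, with 1 at an unadjusted p under 0.05, and for pdr1mre11 against pdr1 it gave 0 with 3. Over all genes 0% of upstream, reading frame and downstream windows were called in the first comparison, and 0%, 0.0175% and 0% in the second. Of all genes 165 of 5779 upstream windows, 105 of 5703 reading frames and 128 of 5733 downstream windows had an unadjusted p under 0.05 in the first. In the second these numbers were 464, 344 and 408. For the difference in VP16 response the counts were 0 with 1 for pdr1sae2 and 0 with 5 for pdr1mre11, where 0% of the windows of all genes were called. The unadjusted numbers over all genes were 73 upstream, 35 in reading frames and 77 downstream for pdr1sae2. For pdr1mre11 they were 232, 86 and 224. DESeq2 also gave 0 member windows in these 4 comparisons. The comparisons share the pdr1 libraries. Each group held 2 libraries, and the spike-in ratio, which differed between strains, does not enter them.

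The 23 member windows with the largest called changes kept their sign in each strain. They were chosen from the fit that pools the strains, so this agreement was favoured by the choice and is no separate test. In the order pdr1, pdr1sae2, pdr1mre11, the RPN3 upstream change was 1.66, 1.58 and 1.69, that of PRE6 was 0.92, 0.81 and 1.05, and the RPT5 reading frame changed by −0.93, −0.89 and −0.77. Tested strain by strain in the same order, 11, 7 and 15 member upstream windows rose, where 41.6%, 32.3% and 47.3% of those of all genes did.

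The other genes of the pathway were 10 assembly chaperones, 8 regulators and proteasome-bound factors and 8 ubiquitin-supply or shuttle genes, none of them a subunit. Upstream 17 of 26 rose and 2 fell, namely BLM10 (−0.46 ± 0.12), which encodes an alternative cap, and HSM3 (−0.36 ± 0.14), an ATPase chaperone. The largest changes were those of RPN14 (1.26 ± 0.12), another ATPase chaperone, ECM29 (1.12 ± 0.12), which holds core and cap together, and IRC25 (1.09 ± 0.13), a chaperone of the alpha ring. With each position counted once, the ECM29 change was 0.22 and did not pass (edgeR adjusted p = 0.0731). RPN4, the regulator of the members, rose by 0.35 ± 0.14 (edgeR adjusted p = 0.0235). CDC48, ECM29, UBA1, UBI4 and YAP1 held the exact PACE sequence in their upstream windows.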

How the data were processed

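The 12 CC-seq maps were used. According to the published methods and the headers, the authors aligned paired reads with Bowtie2 (version not given in the sources used here) to a Cer3 build altered at his4 and leu2, kept reads of mapping quality 0, removed repeats such as rDNA and retrotransposons, and deposited counts, whole numbers of hits per nucleotide and strand with no normalization. The deposited scaling ratio comes from a human DNA spike-in. The last hit of each nuclear chromosome lay within its R64 length except on chromosome III, whose windows were left out. The other coordinates were read from R64 directly, and the chromosome lengths of the authors' build were not compared.

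The members and gene lists were chosen with earlier results of these data known. Stretches of at least 100 bases without a hit in any library (537061 bases, 4.45%) were treated as masked, and windows with under 50 mappable bases were left out. All 99 member windows passed edgeR's filter on low counts. Windows of all genes (5779 upstream, 5703 reading frames, 5733 downstream) were fitted in 1 table with edgeR 4.0.16 (R 4.3.3), strain and treatment as terms, library size being nuclear hits times TMM factors from reading frames and intergenic regions that do not overlap, and Benjamini-Hochberg adjustment over the table at 0.05. Strain comparisons used 6 group means. The procedure was tested on simulated data. The p-values and the standard errors given with ± rest on the spread between these biological replicates.

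Named windows were those called with the largest changes: upstream 8 rises (up to 3 falls were allowed for and none was called), reading frames 5 falls and 3 rises, downstream 4 rises and 3 falls, and 3 upstream windows of other pathway genes, together with the 8 strongest sites, members with the exact element, and the highest and lowest densities. BLM10, HSM3 and RPN4 and the members not called were named beside them after their values were seen. Alternatives were DESeq2 1.42.0, library sizes without TMM factors or from the spike-in, other filters, 200 bp windows, windows without other reading frames, each nucleotide counted once (with library sizes counted alike), a replicate block and leaving out libraries.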

Additional observations from a re-analysis of the deposited data

Results flagged for a closer look

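The reading frames of 3 members moved in opposite directions in 2 strains, every VP16 library of a strain lying on the same side of both of its untreated ones. All member windows were searched for this, but those of other genes were not, so the count has no background to be read against. RPN1, a base scaffold, changed by −0.24 on the log2 scale in pdr1 and by 0.23 in pdr1mre11, a difference of 0.463. PRE2, the beta subunit with the chymotrypsin-like site, changed by −0.38 in pdr1, −0.32 in pdr1sae2 and 0.04 in pdr1mre11, the last minus the first giving a difference of 0.416. RPN13, a ubiquitin receptor, changed by 0.14 in pdr1 and by −0.13 in pdr1mre11, a difference of −0.274. None of these differences in response passed the test of the interaction in edgeR (quasi-likelihood, Benjamini-Hochberg adjusted), and with 2 libraries in a group such a separation can arise from replicate spread.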

How the results depend on the processing

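The direction of change is relative to the library. With spike-in library sizes 33 upstream windows and 33 reading frames of the members rose, among them the reading frames of RPT5 (0.65), RPN7 (0.63), PRE10 (0.77), PUP1 (0.80) and PRE5 (0.90), and downstream PUP2 (0.53), RPN8 (0.65) and SEM1 (0.73) rose on the log2 scale. The fall downstream of SEM1 also turned to 0.20 with each position counted once and to 0.14 in 200 bp windows. A filter of at least 50 hits in every library left 0 of 33 upstream windows to test, so 0 were called, 18 reading frames with 8 called, and 1 downstream window with 0 called. The 8 were 1 rise and 7 falls, where 8.88% of the reading frames of all genes under that filter rose and 65.1% fell. Downstream 23.1% of all genes rose and 42.3% fell. The upstream to reading frame ratio became 1.08 with 200 bp windows and 0.31 with each position counted once, and the cytosine difference became 25.3 percentage points with each position counted once. The causes of these shifts were not tested, except that the stricter filter tests fewer windows.

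Leaving out libraries gave 13 to 22 called upstream windows, 12 to 18 reading frames and 19 to 25 downstream windows, and 0 windows in the 4 strain comparisons. At the lowest and highest counts all genes rose and fell in these shares. Upstream they were 50.8% and 6.58% without replicate 1, and 60.6% and 8.48% without pdr1_UT replicate 2. Reading frames had 13.3% and 40.4% without replicate 1, and 12.5% and 53.1% without pdr1mre11_UT replicate 2. Downstream they were 32% and 15.7% without replicate 1, and 43.8% and 19.2% without pdr1sae2_VP16 replicate 1. Leaving out libraries also gave 0.53 to 0.72 for the ratio, 38.2 to 38.5 points for cytosine and 30.9 to 39.0% for one-sided sites. Over 26 named windows, 544 of 560 values kept direction and call, 6 lost the call and 10 turned direction, 8 of them with the spike-in. Calls were lost by the PRE3 reading frame without replicate 1 or 2, by RPT4 downstream in 200 bp windows or without other reading frames, and with each position counted once by RPT3 downstream (0.16) and ECM29 upstream (0.22).

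With the replicate number as a block 22 upstream windows, 17 reading frames and 24 downstream windows of the members were called, and 0 in the strain comparisons. Over all genes 62.4% of upstream windows then rose and 8.57% fell. The shares were 14.1% and 55.4% for reading frames and 44.4% and 20.3% for downstream windows. Deviations of same-numbered libraries from their group means correlated over 5701 reading frames at 0.44 to 0.49 between untreated groups, at 0.18 to 0.24 between VP16 groups and at −0.13 to 0.30 between an untreated and a VP16 group. Of the 15 pairs of groups 12 were over 0.1, so the replicate numbers share deviations in most groups, and the 3 that were not all join the pdr1mre11 VP16 group with an untreated one. Since not every pair was over 0.1, the numbers were not taken as pairing the samples. Whether more depth or more libraries would change the strain comparisons was not tested.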
